A study of Homo sapiens with 24 samples.

Results

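The early response of A2780 cells to 5-FdU-ECyd was read from 6 of the 24 whole transcriptome libraries of the series: 3 libraries of A2780 cells exposed to 1 µM 5-FdU-ECyd for 6 h and the 3 libraries of untreated A2780 cells of the same time point. They were chosen by their sample labels alone and described across all expressed genes. A2780 is an established human ovarian cancer cell line that the labels call platinum-sensitive. The treated flasks received growth medium with the drug, and the control flasks standard growth medium without it. 2 further pairs of groups served for comparison: A2780 cells exposed to the same dose for 12 h with their untreated controls of 12 h, and A2780cis cells exposed for 6 h with their own untreated controls. A2780cis is the isogenic platinum-resistant line, which was kept resistant by adding cisplatin to its medium every few passages. Each group held 3 libraries of total RNA. The study describes them as biological triplicates, but neither it nor the labels say that they came from separate cultures or days, so the p-values measure the spread between these samples, part of which may be technical.

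5-FdU-ECyd is a duplex drug that joins 2 nucleoside analogues, 5-fluorodeoxyuridine and ethynylcytidine. As background, the active form of 5-fluorodeoxyuridine blocks thymidylate synthase and so starves DNA synthesis of thymidine nucleotides, while ethynylcytidine is phosphorylated by uridine-cytidine kinases and inhibits RNA synthesis. Cells with damaged DNA or disturbed ribosome production stabilise the transcription factor p53, which switches on genes that halt the cell cycle, repair DNA or promote apoptosis. One of these targets, p21, keeps the DREAM complex on the promoters of genes needed for mitosis, where it represses them through a short element known as CHR.

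Between 11096092 and 14372622 reads per library were counted on genes, and protein-coding genes took between 92.9% and 93.2% of them. Levels are given as TMM-normalised CPM, counts scaled to a common library size, which are comparable between libraries for 1 gene but not between genes, since they are not divided by gene length. They are shares of the sequenced RNA, and fewer cells of a kind cannot be told apart from less RNA per cell. Of 13 markers of ovarian carcinoma 5 passed the filter on low counts: EPCAM, FOLR1, KRT8, KRT18 and PAX2. Their sums were 38.9 to 49.6 CPM untreated and 29.7 to 34.6 CPM treated, and 1 rose and 1 fell. PAX8, WT1, MUC16 and SOX17 were among those that did not pass. Of 10 leukocyte markers 2 passed, with summed levels of 2.44 to 3.88 CPM in untreated and 2.31 to 3.84 CPM in treated libraries, and PTPRC did not. One of the pair, ITGAM, was called higher at a mean of 0 CPM untreated and 0.186 CPM treated (adjusted p = 0.0258). Of 8 endothelial markers 2 passed, with sums of 0.359 to 0.91 CPM untreated and 1.95 to 2.08 CPM treated, and ESAM was called higher (adjusted p = 0.000286), while PECAM1, VWF and CDH5 did not pass the filter. Of 10 fibroblast markers 9 passed, with sums of 1499 to 1634 CPM untreated and 1232 to 1326 CPM treated, and 3 rose and 1 fell. The part of these markers in the results was not tested.

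After 6 h, 5948 of 20240 genes tested (29.4%) passed the threshold of an adjusted p of at most 0.05. Expression was higher in treated cells for 3243 genes (16% of those tested) and lower for 2705 (13.4%). The balance depended on the scaling, with 2858 higher and 3126 lower under DESeq2 size factors and 3855 higher and 2196 lower under library size alone. Among protein-coding genes 19.4% were higher and 16% lower. The changes were mostly modest, with a median absolute log2 fold change (log2 FC) of 0.61 among the genes past the threshold. A log2 FC of at least 1 in either direction was reached by 1252 of them, 825 higher and 427 lower, and one of at least 2 by 209, 178 higher and 31 lower. Of the 178 genes, 110 had at most 3 counts in each untreated library. In 5542 of the 5948 genes the 3 treated and the 3 untreated values did not overlap. The test itself favours genes whose groups lie apart, so this count is not separate support for the calls. Without untreated library 1, the number past the threshold was 3846.

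**Figure D1:**
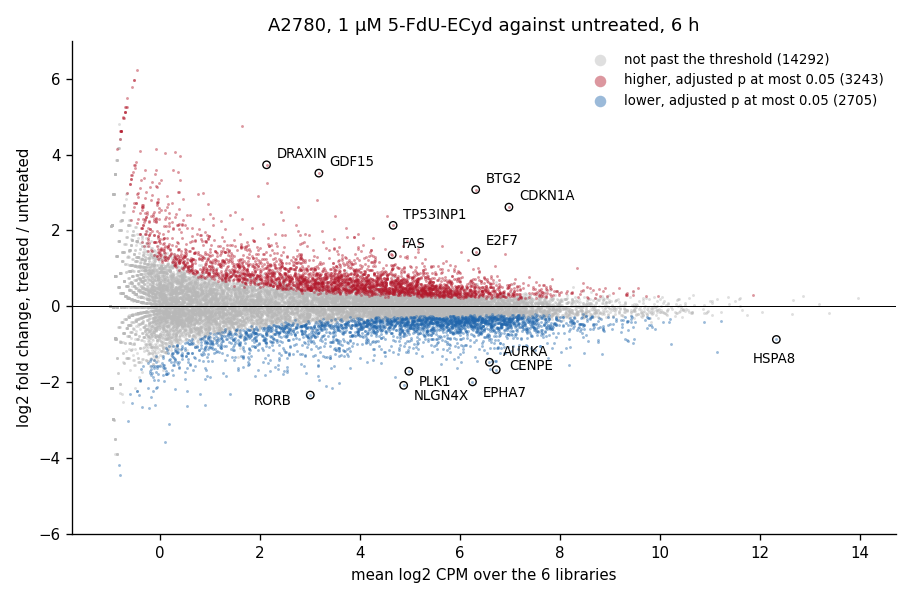
Log2 fold change of every gene tested, treated against untreated A2780 cells at 6 h, against its mean log2 CPM over the 6 libraries; colours mark the 3243 genes higher and the 2705 genes lower past an adjusted p of 0.05. The circled genes with the largest increases (DRAXIN, GDF15, BTG2, CDKN1A) lie above 2 and the circled decreases reach -2.33 (RORB), while the fan at the left holds genes with few counts.

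Target genes of p53 were mostly higher in treated cells. Of 56 target genes tested in 3 lists by role, 45 rose and 2 fell, with a median log2 FC of 1.04, beside 16% higher and a median of 0.04 over all genes tested. The lists are textbook targets and were compiled with earlier results of these data known. Of the 12 protein-coding genes with the largest increases that met the level and overlap conditions, 7 were members: GDF15, BTG2, CDKN1A, BBC3, PLK3, FDXR and TP53INP1.

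Among the 15 targets that act in cell cycle arrest, 11 rose and GTSE1 fell. CDKN1A encodes p21, the inhibitor of cyclin-dependent kinases, and lies on chromosome 6 at positions 36676460 to 36687337 of GRCh38. It was counted at 39.8, 59.3 and 55.0 CPM in the untreated libraries and at 333, 317 and 292 CPM in the treated libraries. The groups were far apart, with a 6.13-fold increase (log2 FC 2.62 ± 0.11 SE, n = 3 libraries per group, adjusted p = 2.74e-16). BTG2, an antiproliferative partner of the CCR4-NOT deadenylase, had 21.0, 35.2 and 26.7 CPM untreated and 231, 232 and 232 CPM treated. Its increase was 8.43-fold (log2 FC 3.08 ± 0.12, adjusted p = 1.17e-16), the smallest p of any gene. The stress cytokine GDF15 went from 1.79, 2.93 and 2.73 CPM to 33.3, 28.6 and 21.9 CPM. That was an 11.4-fold increase (log2 FC 3.51 ± 0.21), and the lowest treated value was several times the highest untreated value. PLK3, a stress-responsive kinase, stood at 4.74, 4.54 and 4.82 CPM without the drug and at 25.0, 26.7 and 21.9 CPM with it (log2 FC 2.38 ± 0.16). GADD45A, which binds PCNA and p21, rose less (log2 FC 1.26 ± 0.14, adjusted p = 9.34e-08). SFN, which encodes the 14-3-3 sigma protein, had at most 3 counts in each untreated library and 2.64, 1.48 and 1.93 CPM in the treated ones. Against that floor it was at least 7.84-fold higher. GTSE1, a spindle protein that restrains p53, was the member that fell (log2 FC -0.49 ± 0.11, adjusted p = 0.00133).

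Of the 19 targets linked to cell death and survival, 16 rose and none passed the threshold in the other direction. BBC3 encodes the BH3-only protein PUMA and was measured at 1.15, 2.18 and 2.91 CPM in untreated cells against 15, 10.1 and 9.11 CPM in treated cells (log2 FC 2.49 ± 0.28, adjusted p = 2.09e-07). BAX, the pore-forming effector of mitochondrial apoptosis, rose less steeply, from 45.2, 67.9 and 70.8 CPM to 128, 119 and 98.4 CPM (log2 FC 0.91 ± 0.14). The death receptor gene FAS had 15.4, 16.4 and 14.4 CPM before and 34.6, 39.1 and 44.9 CPM after treatment (log2 FC 1.36 ± 0.14, adjusted p = 1.64e-08). No treated library overlapped an untreated one for these genes. TP53I11 (log2 FC 1.82 ± 0.16), TRAF4 (1.44 ± 0.14), EDA2R (1.25 ± 0.09), APAF1 (1.07 ± 0.13), which builds the apoptosome, the exonuclease gene AEN (1.07 ± 0.09) and PMAIP1 (0.97 ± 0.24), which encodes the BH3-only protein NOXA, also rose. TNFRSF10B, the gene of the TRAIL receptor DR5, showed a small increase on a narrow spread (log2 FC 0.57 ± 0.08, adjusted p = 8.63e-06).

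The third group holds 22 targets in DNA repair, nucleotide supply and metabolism, of which 18 rose and the helicase gene ASCC3 fell (log2 FC -0.30 ± 0.10, adjusted p = 0.0266). The call of ASCC3 ended when treated library 1 or 2 or untreated library 1 or 2 was left out, with adjusted p-values of 0.0581 to 0.168. FDXR, the mitochondrial ferredoxin reductase, led the group with 8.40, 10.3 and 11.6 CPM untreated against 62.1, 49.7 and 44.8 CPM treated (log2 FC 2.37 ± 0.17). TP53I3, a quinone oxidoreductase, changed from 24.5, 31.9 and 29.1 CPM to 90.0, 81.8 and 86.0 CPM (log2 FC 1.60 ± 0.11). Both had clearly separate groups. The sestrin gene SESN1, whose product restrains mTOR signalling, rose with a log2 FC of 1.42 ± 0.11 and SESN2 with 0.88 ± 0.11. Genes of nucleotide excision repair and lesion bypass rose as well, with DDB2 at 1.21 ± 0.12, the translesion polymerase gene POLH at 1.15 ± 0.10 and XPC at 0.65 ± 0.10. RRM2B, the p53-inducible subunit of ribonucleotide reductase, had 65.8, 64.3 and 55.0 CPM in untreated and 89.8, 104 and 113 CPM in treated libraries (log2 FC 0.73 ± 0.13, adjusted p = 0.000141).

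The feedback genes of p53 split in both directions: of 10 tested, 3 rose and 3 fell. MDM2, the ubiquitin ligase that degrades p53 and is itself a p53 target, was tightly grouped at 129, 130.0 and 127 CPM before treatment and at 201, 222 and 235 CPM after it (log2 FC 0.77 ± 0.11, adjusted p = 4.73e-06). The phosphatase gene PPM1D rose from 37.6, 42.4 and 34.2 CPM to 78.5, 83.0 and 81.3 CPM (log2 FC 1.09 ± 0.11), and TP53INP1 from 11.6, 12.3 and 11.6 CPM to 49.8, 48.7 and 57.6 CPM (log2 FC 2.13 ± 0.13). Lower levels were found for MDM4, a p53 inhibitor related to MDM2 (log2 FC -0.45 ± 0.09, adjusted p = 0.000656), for the ligase gene COP1 (-0.43 ± 0.10, adjusted p = 0.00293) and for the deubiquitinase gene USP7 (-0.35 ± 0.09, adjusted p = 0.00606).

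**Figure D2:**
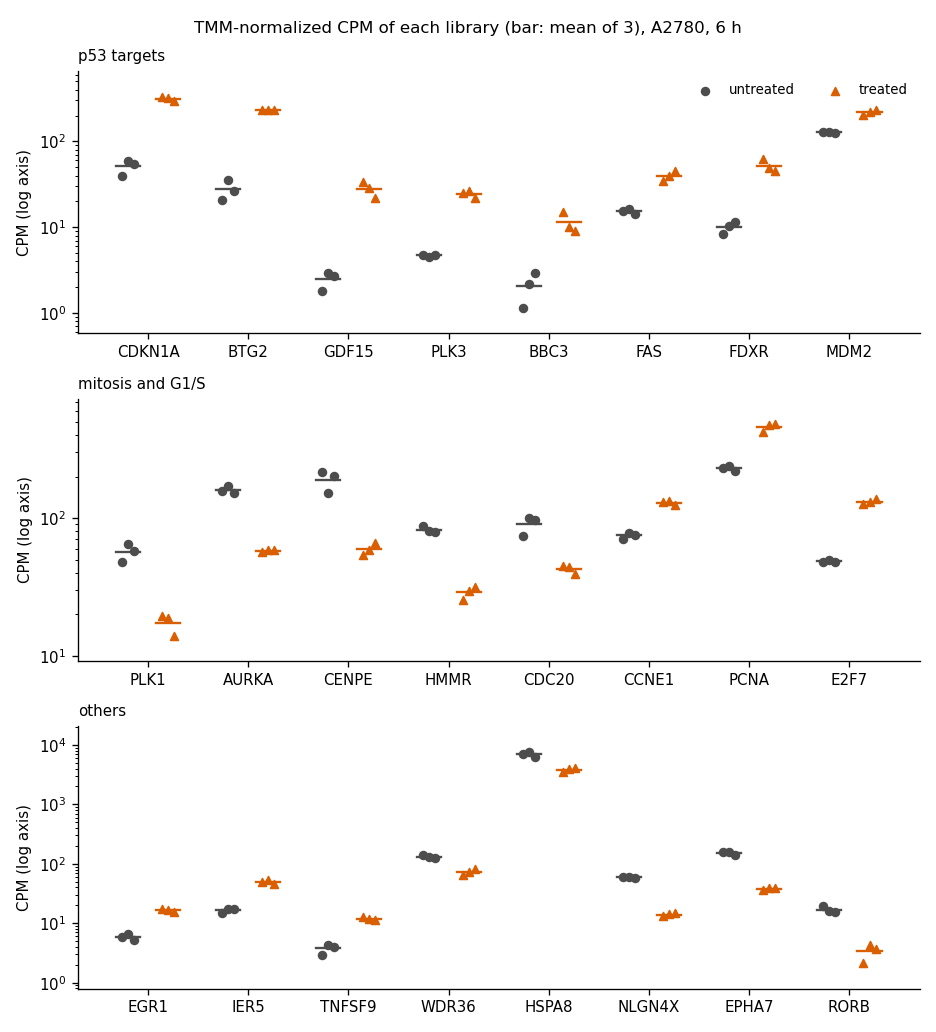
TMM-normalised CPM (log axis) of 24 genes in each of the 3 untreated (circles) and 3 treated (triangles) A2780 libraries at 6 h, with a bar at the mean of each group. For CDKN1A the untreated libraries sit between 39.8 and 59.3 CPM and the treated between 292 and 333 CPM, and PLK1 shows the opposite order.

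Large increases outside the p53 lists included DRAXIN, a secreted axon guidance factor, with 0.933, 1.1 and 0.818 CPM untreated and 11.9, 13.1 and 13.3 CPM treated (log2 FC 3.73 ± 0.22). INKA2, an inhibitor of the kinase PAK4, rose from 3.30, 3.60 and 2.36 CPM to 21.5, 21.9 and 21.5 CPM (log2 FC 2.80 ± 0.16). The ankyrin gene ANK1 (2.63 ± 0.23), the glutamate receptor gene GRIN2C (3.25 ± 0.30) and the ubiquitin ligase gene MIB2 (2.16 ± 0.34) complete, with these, the 12 largest coding increases.

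Genes of mitosis fell together. Of 37 tested, 33 fell and none passed in the other direction, with a median log2 FC of -0.96, beside 13.4% of all genes lower. PLK1, the kinase that drives mitotic entry and spindle assembly, had the largest decrease of the list, from 47.6, 64.5 and 57.6 CPM to 19.4, 18.7 and 14.0 CPM (log2 FC -1.71 ± 0.15, adjusted p = 2.67e-09). The kinetochore motor gene CENPE fell from 216, 152 and 202 CPM to 54.2, 58.9 and 66.3 CPM (log2 FC -1.67 ± 0.13). AURKA, the centrosome kinase, fell from 157, 171 and 153 CPM to 57.0, 58.3 and 58.2 CPM (log2 FC -1.47 ± 0.11). Treated libraries were below all untreated ones for each of these genes. KIF20A, a kinesin of the central spindle, had the smallest p of the list, with 86.1, 82.5 and 84.2 CPM against 30.6, 32.3 and 34.6 CPM (log2 FC -1.37 ± 0.08, adjusted p = 2.54e-12). HMMR (-1.52 ± 0.13), DNA topoisomerase gene TOP2A (-1.27 ± 0.12), cyclin gene CCNB1 (-1.21 ± 0.12), the spindle factor gene TPX2 (-1.08 ± 0.09) and CDC20 (-1.08 ± 0.11), an activator of the anaphase-promoting complex, followed. CDK1, the kinase partner of cyclin B1, fell less (-0.58 ± 0.11, adjusted p = 0.000325). The 4 members that did not pass were FOXM1 (log2 FC 0.16 ± 0.11, adjusted p = 0.285), AURKB (-0.22 ± 0.11, adjusted p = 0.144), CKS1B and CDC25B. With the GC trend of each library removed, described further on, AURKB passed as lower (-0.43, adjusted p = 0.000144). GAS2L3, a cytoskeletal linker gene that was not in the list, was among the largest decreases of all genes, from 17.2, 16.9 and 16.4 CPM to 3.84, 3.52 and 5.70 CPM (log2 FC -1.93 ± 0.18).

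The promoters of these genes were read from RefSeq for the window from 250 bases before to 50 bases after the start, on GRCh38.p14. The core of the CHR element (TTTGAA, searched on both strands) lay in 22 of the 32 mitosis promoters found (68.8%), against 9.9% of the 11021 promoters of tested protein-coding genes and 15.4% of 27305 promoters in all. The CCAAT box (CCAAT, both strands), the binding site of NF-Y, was found in 26 of the 32 (81.2%), against 36.5% and 35.7%. Among the 226 genes with a promoter that fell by a log2 FC of at least 1, 20.8% held the CHR core. Of genes with the core 24.5% were lower at 6 h, and of genes without it 15.7%. Matches are given as a description of these windows, and binding was not measured. Below are the 120 bases before the start of 3 mitosis genes, to show how the elements lie together, with CHR cores and CCAAT boxes of either strand in capitals.
PLK1, chr16:23678769-23678888, + strand: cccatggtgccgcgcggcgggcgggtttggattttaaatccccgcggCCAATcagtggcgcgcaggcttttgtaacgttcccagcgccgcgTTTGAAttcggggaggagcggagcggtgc
HMMR, chr5:163460512-163460631, + strand: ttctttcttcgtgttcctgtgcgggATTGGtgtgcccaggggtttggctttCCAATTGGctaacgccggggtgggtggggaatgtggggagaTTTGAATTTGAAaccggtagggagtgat
CDC20, chr1:43358861-43358980, + strand: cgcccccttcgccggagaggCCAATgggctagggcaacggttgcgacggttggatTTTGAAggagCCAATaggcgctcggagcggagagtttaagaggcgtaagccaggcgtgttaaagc
In PLK1 the CHR core began 29 bases before the start and the CCAAT box 73 bases before it. HMMR held 2 adjoining CHR cores, at 28 and 22 bases before the start, and a pair of overlapping CCAAT boxes on opposite strands. In CDC20 the CHR core at 65 bases before the start stood between 2 CCAAT boxes.

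Genes of the G1/S transition rose in part. Of 36 cyclins and E2F target genes tested, 16 rose (44.4%), 5 fell (13.9%) and 15 did not pass, with a median log2 FC of 0.21, beside 16% higher and 13.4% lower over all genes. CCNE2, which encodes cyclin E2, rose from 44.8, 49.4 and 45.5 CPM to 99.6, 111 and 118 CPM (log2 FC 1.23 ± 0.11, adjusted p = 3.31e-09), although 37.1% of its exonic bases are shared with another annotated gene. CCNE1, the cyclin E1 gene, rose from 70.6, 78.4 and 75.3 CPM to 131, 133 and 125 CPM (log2 FC 0.79 ± 0.09). E2F7, an E2F repressor that p53 also activates, went from 48.3, 49.2 and 47.9 CPM to 127, 130.0 and 138 CPM (log2 FC 1.44 ± 0.10). The 3 genes had no overlap between groups. E2F2 (1.03 ± 0.10), the replication clamp gene PCNA (1.01 ± 0.10) and CDK2 (0.77 ± 0.08), the kinase partner of cyclin E, rose too. The members that fell included RBL1 (-0.78 ± 0.13), a pocket protein, and CCNA2 (-0.55 ± 0.10), whose cyclin A2 acts in S phase and G2. The E2F core GGCGGGAA was found in 27.6% of the promoters of this list, against 5.1% of tested protein-coding genes.

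**Figure D3:**
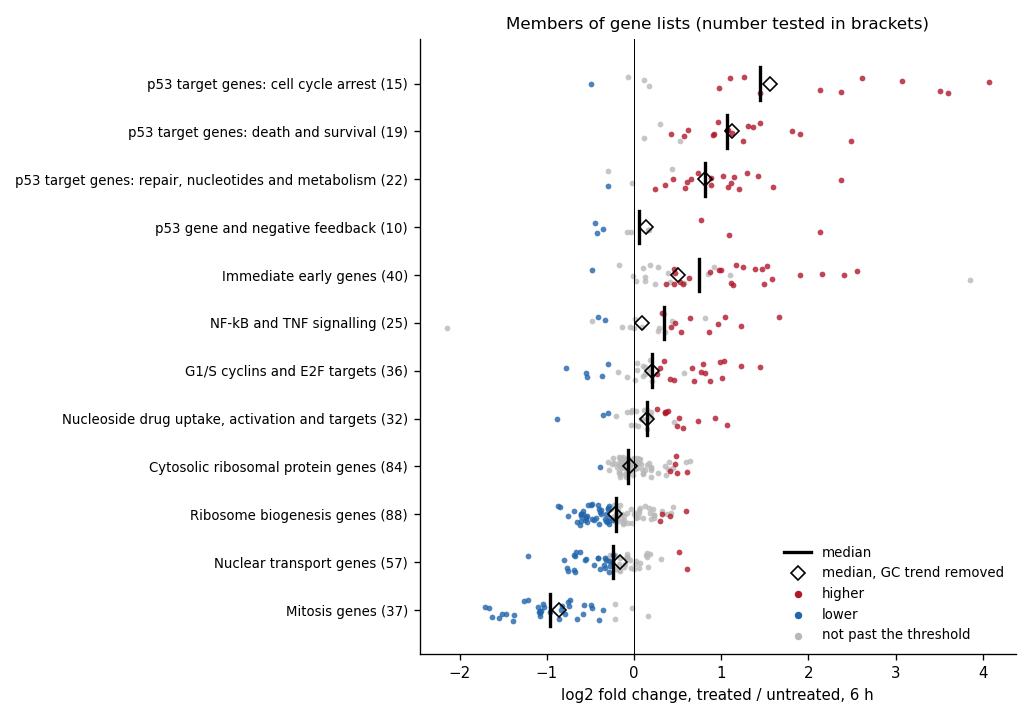
Log2 fold change at 6 h of each tested member of 12 gene lists, with the number tested in brackets, the median as a bar and the median after removal of the GC trend of each library as a diamond; colours mark members past an adjusted p of 0.05. All 33 coloured mitosis genes lie below 0 and the p53 lists lie mostly above it, while the median of immediate early genes moves from 0.75 to 0.51.

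Gene length and base composition moved with the response. The 13881 protein-coding genes tested were divided into 5 equal classes by length. In the shortest class, up to 10.6 kb, 28.0% were higher and 6.3% lower, with a median log2 FC of 0.24. The share higher there was 17.5% without treated library 1 and 15.5% without untreated library 1. In the longest class, from 98.2 to 2305 kb, 6.1% were higher and 33.7% (935 of 2776) lower, with a median of -0.21. The classes between them fell in order, with medians of 0.20, 0.08 and -0.03. Genes with the largest decreases were long: of the 12 largest coding decreases, 7 lay in the longest class, and their median length was 182 kb, against 14.8 kb for the 12 largest increases.

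NLGN4X, which encodes the synaptic adhesion protein neuroligin 4, spans 388231 bases of chromosome X, from 5840637 to 6228867 of GRCh38. It fell from 59.4, 59.6 and 58.7 CPM to 13, 14.4 and 14.7 CPM (log2 FC -2.08 ± 0.11, adjusted p = 1.02e-13), the smallest p among genes that fell. EPHA7, an ephrin receptor gene of 179668 bases, went from 157, 157 and 140.0 CPM to 36.6, 38.9 and 39.0 CPM (log2 FC -1.99 ± 0.12). The nuclear receptor gene RORB, of 195843 bases, had the largest decrease among coding genes under the naming rule, from 19.3, 16 and 15.6 CPM to 2.13, 4.26 and 3.70 CPM (log2 FC -2.33 ± 0.21). All 3 were separated by wide gaps between the groups. ANK3 (-1.64 ± 0.11), SLIT2 (-1.43 ± 0.11), B3GALT1 (-2.03 ± 0.18) and RSPO2 (-2.09 ± 0.18) were of the same kind. Long genes were not all lower: SESN1 and ANK1, both in the longest class, rose.

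GC content of the transcripts varied with the response and also among libraries of 1 group. The class of highest GC (58.9% to 75.6%) had a median log2 FC of 0.49, with 39.5% higher and 2.7% lower, and the class of lowest GC (30.7% to 40.8%) a median of -0.22, with 3.8% higher and 34.3% lower. Without treated library 1 the share higher in the former was 21.7% and the share lower in the latter 21.0%, and without untreated library 1 they were 20.2% and 22%. Against the mean of the untreated libraries, the median log2 ratio of the high-GC class was 0.59, 0.39 and 0.22 in treated libraries 1 to 3. It was -0.37 in untreated library 1 against the other 2, and 0.31 in untreated library 3. Short genes are richer in GC, with a median of 56.5% in the shortest class and 44.5% in the longest. Within the lowest GC class, 48.0% of the longest genes and 22.8% of the shortest were lower. In the next classes up the longest genes were lower in 42.2% and 24.5%, and in the 2 classes of highest GC they were not lower on balance, with 15.8% higher against 10.1% lower and 12.9% against 12.2%. With the GC trend of each library removed, an alternative added after the data were seen, 31.5% of the longest class was lower and 7.3% higher, and the shortest class moved from 28.0% to 16.2% higher. The p53 targets then counted 45 higher and 1 lower (median 1.05) and the mitosis genes 35 lower and 0 higher (median -0.86).

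**Figure D4:**
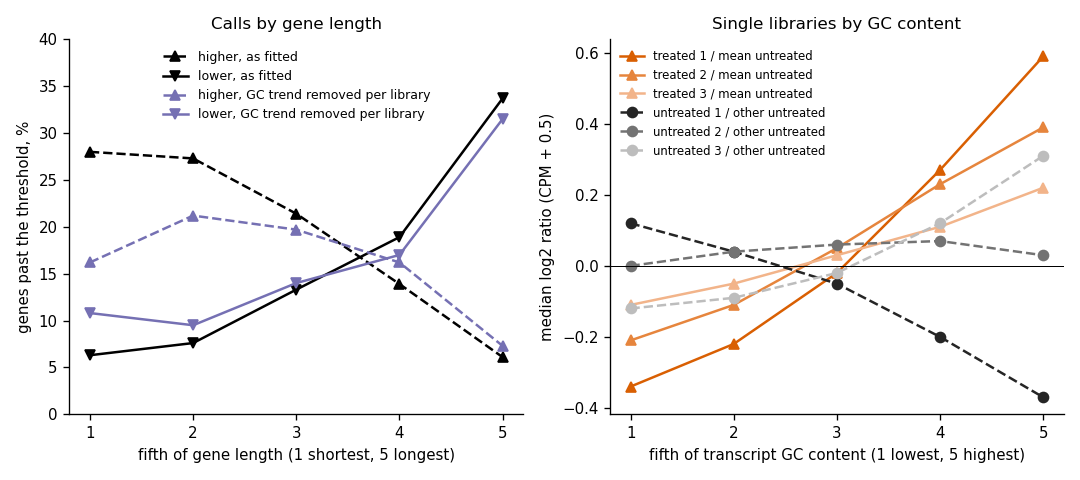
Left, percentage of protein-coding genes past the threshold in each direction in 5 classes of gene length (1 shortest, 5 longest), as fitted and with the GC trend of each library removed. Right, median log2 ratio (CPM + 0.5) of each library in 5 classes of transcript GC content; treated libraries 1 to 3 reach 0.59, 0.39 and 0.22 in the highest class, where untreated library 1 stands at -0.37 against the other untreated libraries.

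Immediate early genes, which respond to stimuli without new protein synthesis, were mostly higher. Of 40 tested, 23 rose (57.5%) and 1 fell (2.5%), with a median log2 FC of 0.75, beside 16% higher and 13.4% lower over all genes. The zinc finger factor gene EGR1 rose from 5.89, 6.72 and 5.27 CPM to 17.5, 17.0 and 15.2 CPM (log2 FC 1.47 ± 0.15, adjusted p = 1.83e-08). IER5, a regulator of the heat shock factor HSF1, had 14.8, 17.6 and 17.2 CPM before and 49.6, 52.8 and 45.8 CPM after treatment (log2 FC 1.58 ± 0.10). Groups were separate in both. CSRNP1 (1.53 ± 0.14), the small GTPase gene RHOB (1.39 ± 0.13), the stress factor gene ATF3 (1.12 ± 0.15) and the mRNA decay factor gene ZFP36 (1.00 ± 0.17) rose, and KLF6 (-0.48 ± 0.13) fell. These genes are short and rich in GC, with 29 of the 40 in the shortest length class. Of those 29, 16 rose, beside 28.0% of all coding genes in that class. With the GC trend removed, 20 rose and 1 fell, and the median was 0.51. EGR1 is known to respond through serum response factor at CArG boxes, and 2 of them, in capitals, stand at 105 and 83 bases before its start.
EGR1, chr5:138465359-138465478, + strand: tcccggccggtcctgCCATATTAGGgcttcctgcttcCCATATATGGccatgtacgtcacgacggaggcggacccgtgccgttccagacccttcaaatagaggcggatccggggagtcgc
A CArG box was found in 2 of 30 immediate early promoters (6.7%) and in 1.1% of the promoters of tested protein-coding genes. The p53 half-site, searched on both strands, was present in 6 of 46 promoters of p53 targets (13%) and in 5.2% of tested protein-coding genes. Among genes called with a log2 FC of at least 1, it lay in 5.4% of those higher and 9.7% of those lower. The windows of CDKN1A, BTG2, GDF15, BBC3, PLK3 and TP53I3 did not hold it. A half-site was found 34 bases before the start of AEN, which is shown as an example.
AEN, chr15:88621220-88621339, + strand: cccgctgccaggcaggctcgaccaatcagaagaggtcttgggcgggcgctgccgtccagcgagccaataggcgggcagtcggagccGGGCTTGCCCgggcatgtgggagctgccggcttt

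Of 25 tested genes of NF-kB and TNF signalling, 10 rose and 2 fell, with a median log2 FC of 0.35 that was 0.09 without the GC trend (8 higher, 2 lower). TNFSF9, the ligand of the costimulatory receptor 4-1BB, rose from 2.94, 4.35 and 4.0 CPM to 12.5, 11.8 and 11.2 CPM (log2 FC 1.67 ± 0.16). The inhibitor genes NFKBIE (1.23 ± 0.17) and NFKBIA (0.54 ± 0.10) and the subunit gene NFKB2 (0.86 ± 0.16) rose. Of the kinases that release NF-kB, IKBKB was higher (0.32 ± 0.10, adjusted p = 0.0151) and CHUK lower (-0.34 ± 0.11, adjusted p = 0.0253). The call of IKBKB ended without treated library 1, untreated library 1 or untreated library 2 (adjusted p of 0.0618 to 0.0851), and that of CHUK without treated library 1 or 2 or untreated library 1 or 2 (0.0504 to 0.144). BIRC3, an inhibitor of apoptosis and a classical NF-kB target, did not pass, with 3.37, 3.5 and 4.18 CPM against 2.90, 3.70 and 4.0 CPM (log2 FC -0.05 ± 0.20, adjusted p = 0.876).

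In the BCL2 family and the caspases, 11 of 27 rose (40.7%) and 3 fell (11.1%), with a median log2 FC of 0.30. Over all genes 16% were higher and 13.4% lower, so the share that fell was near the background. Beyond BBC3, BAX, PMAIP1 and APAF1, increases were found for BAK1 (log2 FC 0.82 ± 0.14) and for CASP2 (0.52 ± 0.10), an initiator caspase. Lower levels were seen for XIAP (-0.49 ± 0.11), which inhibits caspases, and for CASP8 (-0.39 ± 0.10), the initiator caspase of death receptors. CFLAR, whose product restrains caspase 8, rose from 35.8, 33.2 and 35.6 CPM to 49.3, 54.7 and 59.5 CPM (0.64 ± 0.09).

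Genes that make ribosomes declined slightly but in number. Of 88 ribosome biogenesis genes tested, 40 fell and 4 rose, with a median log2 FC of -0.22, beside 13.4% of all genes lower. WDR36, a component of the small subunit processome, fell from 143, 131 and 124 CPM to 64.0, 72.6 and 81.4 CPM (log2 FC -0.87 ± 0.13, adjusted p = 7.61e-06). The nucleolar helicase gene DDX10 fell from 79.1, 78.7 and 67.1 CPM to 35.1, 45.4 and 44.2 CPM (-0.85 ± 0.11), and GNL3, which encodes nucleostemin, from 294, 302 and 263 CPM to 157, 177 and 174 CPM (-0.76 ± 0.10). Treated values were below untreated ones in each. With the GC trend removed 48 fell and 1 rose. The genes of the ribosomal proteins themselves behaved otherwise: of 84 tested, 5 rose and 1 fell, with a median of -0.07. Without treated library 1 or untreated library 1 the number that rose was 1, without treated library 2 it was 2, without treated library 3 it was 10 and without untreated library 3 it was 8, and the median was 0.09 without untreated library 2. MYC, a regulator of ribosome production, fell from 48.9, 70.1 and 66.2 CPM to 38.3, 37.4 and 32.8 CPM (-0.77 ± 0.12, adjusted p = 1.19e-05), and so did its antagonist MGA (-0.96 ± 0.13). The MYC network as a list was split: of 12 genes tested 3 rose and 3 fell (25.0% each), with a median of 0.04. With the GC trend removed 2 rose and 3 fell, and the median was -0.21.

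Transport through the nuclear pore showed a similar picture, with 25 of 57 genes lower (43.9%) and 2 higher (3.5%), at a median log2 FC of -0.24. Over all genes 13.4% were lower and 16% higher. Without treated library 1 the number lower was 16. The fourth and the longest length class held 27 and 10 of these genes, with 17 and 5 lower. Of all coding genes in those 2 classes 18.9% and 33.7% were lower. The nucleoporin gene NUP35 fell from 47.2, 47.1 and 46.7 CPM to 18.0, 20.3 and 22.5 CPM (-1.21 ± 0.13). KPNA2, an importin that carries proteins into the nucleus, fell by 0.80 ± 0.09, NUP153 by 0.77 ± 0.10 and the exportin gene XPO1 by 0.66 ± 0.11 on the log2 scale. Among SR proteins and their kinases, 6 of 23 fell (26.1%) and 3 rose (13%), beside 13.4% and 16% over all genes. The number that rose was 1 without treated library 2, treated library 3 or untreated library 2. SRSF3 had 871, 973 and 801 CPM untreated and 443, 489 and 512 CPM treated (-0.87 ± 0.12), SRSF5 fell by 0.80 ± 0.10 and the SR protein kinase gene SRPK2 by 0.87 ± 0.10. The median of that list was -0.10 and turned to 0.04 without the GC trend. Among 35 genes of heat shock proteins and cochaperones, 5 rose and 5 fell (14.3% each, median -0.11), near the shares over all genes. HSPA8, the constitutive HSC70 chaperone gene, fell from 6970, 7680 and 6370 CPM to 3510, 3960 and 4030 CPM (-0.87 ± 0.12).

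Genes of the transcription machinery were called at shares nearer the background. Of 28 genes of P-TEFb and elongation control, 6 rose and 6 fell (21.4% each), beside 19.4% and 16% of protein-coding genes, and without treated library 1 or untreated library 1 the number that rose was 3. HEXIM1, which holds P-TEFb inactive on the 7SK RNA, rose from 51.7, 52.7 and 54.8 CPM to 85.6, 75.4 and 74.3 CPM (log2 FC 0.56 ± 0.08, adjusted p = 1.06e-05). The kinase gene CDK12 (-0.62 ± 0.12) and AFF4 (-0.70 ± 0.14), a scaffold of the super elongation complex, fell. Among 30 RNA polymerase subunits 7 fell (23.3%) and 3 rose (10%), and 1 rose without treated library 1 or untreated library 1, with POLR2B (-0.49 ± 0.11) and POLR1B (-0.42 ± 0.08) among the former.

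The genes that take up, activate or are hit by nucleoside drugs bear on this compound directly. Of 32 tested, 11 rose (34.4%) and 3 fell (9.4%), with a median log2 FC of 0.15, beside 16% higher and 13.4% lower over all genes. TYMS encodes thymidylate synthase and rose from 252, 287 and 254 CPM to 327, 370.0 and 340.0 CPM (log2 FC 0.39 ± 0.09, adjusted p = 0.00224), with 47.9% of its exonic bases shared with another annotated gene. TK1, the thymidine kinase that phosphorylates 5-fluorodeoxyuridine, rose from 20.3, 29.3 and 31.9 CPM to 67.1, 56.5 and 46.5 CPM (1.07 ± 0.17). The 2 uridine-cytidine kinases differed in direction. UCK1 rose from 18.7, 20.2 and 21.9 CPM to 41.3, 39.8 and 35.2 CPM (0.94 ± 0.10, adjusted p = 1.12e-07), and UCK2 fell from 136, 150.0 and 152 CPM to 111, 117 and 114 CPM (-0.35 ± 0.08, adjusted p = 0.00179). SLC29A1, the equilibrative nucleoside transporter ENT1, rose (0.52 ± 0.09). DPYD, which encodes the enzyme that degrades fluorouracil and lies in the longest length class, fell from 18.1, 19.3 and 17.6 CPM to 8.70, 10.9 and 10.3 CPM (-0.88 ± 0.15).

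Of 26 genes that the study names in its transcriptome results, 24 were tested, 19 rose and CHUK fell. They were picked on these samples, among others, so their count is not independent evidence of a direction.

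At 12 h the response of A2780 cells differed from that at 6 h in 4771 genes (23.6% of 20240), tested as the 12 h log2 FC minus the 6 h log2 FC. Of 1252 genes with a log2 FC of at least 1 at 6 h in either direction, 1019 passed the threshold at 12 h in the same direction. In A2780cis at 6 h 664 of them did so. No share over all genes stands beside these 2 counts, so they do not measure how far the response was kept. For 29 of the 56 p53 targets (51.8%) the response was larger in the positive direction at 12 h, and for none in the other; their median log2 FC was 1.04 at 6 h and 1.73 at 12 h. TP53I3 had a log2 FC of 1.60 at 6 h and 3.49 at 12 h (difference 1.90 ± 0.15, adjusted p = 3.39e-09), GADD45A 1.26 and 3.17 (1.90 ± 0.19, adjusted p = 1.75e-07) and FAS 1.36 and 2.75 (1.39 ± 0.19, adjusted p = 8.69e-06). CDKN1A stood at 2.62 and 2.89, and its difference did not pass (0.27 ± 0.14, adjusted p = 0.179). Outside the list, DRAXIN and INKA2 rose further (differences 2.96 ± 0.37 and 2.02 ± 0.22), as did KCTD11 (2.12 ± 0.21), PDE4C (2.81 ± 0.23) and EGR1 (1.00 ± 0.20).

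Mitosis genes had a median log2 FC of -0.96 at 6 h and -1.0 at 12 h. Between the times 7 of 37 differed, beside 23.6% of all genes. Ribosome biogenesis fell further: the median was -0.22 at 6 h and -0.73 at 12 h. The response of 50 of 88 genes differed, 49 of them in the negative direction. Over all genes, 2602 of the 4771 that differed did so in the negative direction. HEATR1 went from -0.56 to -1.42 (difference -0.86 ± 0.14, adjusted p = 7.4e-05). HSPA8 reached -3.45 at 12 h (difference -2.58 ± 0.17, adjusted p = 1.97e-10), and SLIT2 -3.36 (-1.93 ± 0.15). SRSF5 was back near its control, at 0.13 (difference 0.93 ± 0.14, adjusted p = 2.3e-05). BIRC3, with -0.05 at 6 h, had a log2 FC of 3.07 at 12 h (difference 3.12 ± 0.26, adjusted p = 7.9e-09). CCNE1 was the reverse, with 0.79 at 6 h and 0.20 at 12 h (-0.59 ± 0.12, adjusted p = 0.000784).

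Between the cell lines, the 6 h response differed in 622 genes (3.07% of 20240), tested as the A2780cis log2 FC minus that of A2780. The smaller value was that of A2780cis in 484 of them. Without untreated A2780 library 1 the number of genes that differed was 364. Among the 56 p53 targets 16 differed (28.6%), 14 of them with the smaller value in A2780cis, and their median log2 FC was 0.63 in A2780cis against 1.04 in A2780. FAS rose by 1.36 on the log2 scale in A2780, and its value in A2780cis was 0.14 (difference -1.22 ± 0.18, adjusted p = 0.000283). TP53INP1 had 2.13 and 0.28 (-1.86 ± 0.34, adjusted p = 0.0016) and PPM1D 1.09 and -0.03 (-1.11 ± 0.15, adjusted p = 4.93e-05). GADD45A went the other way, with 1.26 in A2780 and 2.22 in A2780cis (0.96 ± 0.21, adjusted p = 0.00791). CDKN1A (2.62 and 2.86) and BTG2 (3.08 and 2.81) were called in both lines, and their differences, 0.25 ± 0.16 and -0.27 ± 0.16, did not pass.

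Of the 36 G1/S genes 7 differed between the lines, beside 3.07% of all genes. Each had the smaller value in A2780cis, as did 484 of all 622 genes that differed. Among the 7 were CCNE1 at 0.03 (difference -0.77 ± 0.12), CCNE2 at 0.43 (-0.80 ± 0.15) and E2F7 at 0.62 (-0.82 ± 0.15, adjusted p = 0.00142). Of the 37 mitosis genes 1 differed between the lines, KIF20A (-1.37 in A2780 and -0.80 in A2780cis, difference 0.57 ± 0.12, adjusted p = 0.0046), and the median was -0.86 in A2780cis. The smallest p of this comparison belonged to ABHD15, at 0.41 in A2780 and -1.28 in A2780cis (-1.70 ± 0.13, adjusted p = 9.15e-09). LPCAT1, an enzyme of phospholipid remodelling, fell in both, by 0.54 and 2.01 on the log2 scale (-1.47 ± 0.14), and NACC2 by 2.16 and 3.80 (-1.64 ± 0.31). FILIP1L moved in opposite directions, at -0.98 in A2780 and 0.67 in A2780cis (difference 1.65 ± 0.26, adjusted p = 0.000517). Long genes were lower in A2780cis as well, with a median log2 FC of -0.32 in the longest class.

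**Figure D5:**
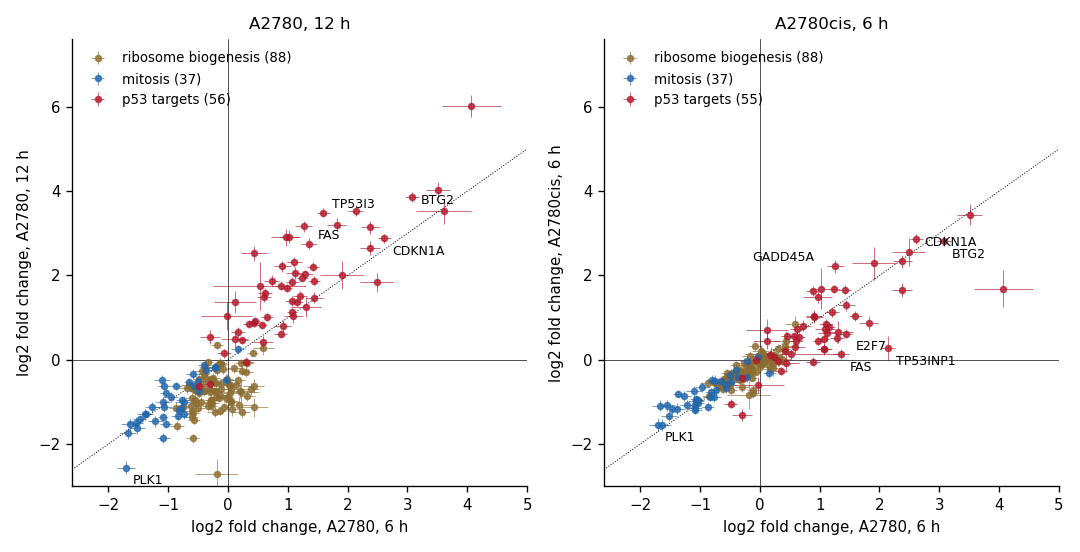
Log2 fold change with its standard error of p53 targets, mitosis genes and ribosome biogenesis genes in A2780 at 6 h (x) against A2780 at 12 h (left) and A2780cis at 6 h (right), with a dotted line of equal response; 1 of the 56 p53 targets without counts in A2780cis is not drawn on the right. FAS lies above the line at 12 h (2.75) and well under it in A2780cis (0.14), while CDKN1A stays near it in both.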

How the data were processed

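Total RNA was extracted with an on-column DNase step, and libraries were made with a stranded total RNA kit. The authors deposited expected counts per gene, not normalised, in 1 table of 63299 genes and 24 libraries. Per the submitters' processing notes, reads were aligned with STAR 2.5.2b to GRCh38.p7 and counted with featureCounts, and per the methods reads with several alignments counted as fractions and reads over several genes were allowed, so paralogs and overlapping genes may share reads. The strand setting was not given in the sources used here, and the labels and methods differ on single or paired reads. After rounding, the table was fitted with edgeR 4.0.16 under R 4.3.3. For this, filterByExpr at a minimum count of 10 and total of 15 kept 20240 genes, which were scaled with TMM and fitted with a robust quasi-likelihood model of 8 groups and no covariates (16 residual degrees of freedom). Treated and untreated cells, and differences between responses, were compared with edgeR's quasi-likelihood test, two-sided, with Benjamini-Hochberg adjustment over all genes tested and a threshold of 0.05. Standard errors are those of the log2 fold changes. A gene with no more than 3 counts per library throughout a group was treated as at the floor. The reads carry no molecular identifiers, so floors cover counting error only.

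Annotation came from GENCODE release 44, in which 19889 of the tested identifiers were found. The genes named were the 12 largest coding and 4 largest other changes in each direction whose groups did not overlap and whose mean log2 CPM reached 2, up to 5 members of smallest p of each gene list and members of lists described singly, genes named in the study, and the genes of smallest p in the comparisons, though not all of these are described. The members and lists were chosen with earlier results of these data known. Some genes are not reported here. The GC trend was removed per library with LOWESS (span 0.3). On simulated counts of this comparison 197 of 200 changed genes and 4 of 19768 unchanged genes were called. This checks the fitting steps only and does not measure the share of false calls among the 5948 genes. The real libraries differed in GC trend within a group, with high-GC medians of -0.37 and 0.31 in untreated libraries 1 and 3. Without untreated library 1 the number called was 3846. Alternatives were other scalings (DESeq2 1.42.0 size factors, library size alone), no filter, the DESeq2 Wald test, the compared libraries alone, a replicate block, removal of lncRNA and rRNA genes, and each library left out. Figures were drawn with Python 3.11.15 and matplotlib 3.10.9.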

Additional observations from a re-analysis of the deposited data

Results flagged for a closer look

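Responses that differed between 2 groups by a test of the difference itself are listed here, with no explanation weighed. Over all genes, 4771 differed between the 12 h and the 6 h response of A2780 cells, and 622 between the 6 h responses of A2780cis and A2780. Each value below is a difference of log2 fold changes from edgeR's quasi-likelihood test, with n = 3 libraries in each of 4 groups.

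Among p53 targets, the 12 h response exceeded the 6 h response by 1.90 for TP53I3, 1.90 for GADD45A, 1.41 for TP53INP1, 1.39 for FAS and 0.43 for E2F7. The call of E2F7 was weak (adjusted p = 0.0294) and was lost in 8 of its alternatives. Outside these, the difference was 3.12 for BIRC3, 2.96 for DRAXIN, 2.81 for PDE4C, 2.12 for KCTD11, 2.02 for INKA2, 1.00 for EGR1, 0.99 for ZNF600, 0.93 for SRSF5 and 0.71 for CCNE2. It was negative for HSPA8 (-2.58), SLIT2 (-1.93), NLGN4X (-1.05), HEATR1 (-0.86), LPCAT1 (-0.74) and CCNE1 (-0.59).

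In A2780cis the 6 h response was below that of A2780 for DRAXIN (-2.10), TP53INP1 (-1.86), ABHD15 (-1.70), NACC2 (-1.64), LPCAT1 (-1.47), ZNF600 (-1.39), FAS (-1.22), PPM1D (-1.11), E2F7 (-0.82), CCNE2 (-0.80), CCNE1 (-0.77) and TP53I3 (-0.56). The call of TP53I3 (adjusted p = 0.0401) was lost in 14 of its alternatives, and that of NACC2 with the replicate block. The response was above that of A2780 for FILIP1L (1.65), SLIT2 (1.05), GADD45A (0.96), NLGN4X (0.81) and KIF20A (0.57). NLGN4X lost its call without treated A2780cis library 3 (adjusted p = 0.0576).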

How the results depend on the processing

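Values of 134 named genes at 6 h were recomputed under the alternatives, and 1844 of 1871 kept their direction and their side of the threshold. Many of these genes were named for large changes or small p in the same libraries, so this share does not hold for all genes. Without untreated library 1, 3732 of all 5948 calls were kept. The count of genes past the threshold ranged from 3846 (without untreated library 1) to 6015 with single libraries left out, and was 5984 with DESeq2 size factors, 6051 with library sizes alone, 5746 without a filter and 5683 with the DESeq2 Wald test. A log2 fold change of at least 1 left 1252 genes and one of at least 2 left 209. Scaling by library size alone shifted the median log2 fold change of all genes from 0.037 to 0.103, and in the comparison of 12 h with 6 h it raised the share of positive calls from 45.5% to 69.8%. The correlations of same-numbered deviations were -0.25, 0.08 and -0.16, and the highest was 0.26 between untreated 1 and treated 3. These deviations were taken from the mean of each small group and carry the GC trend of each library. They cannot decide whether same-numbered samples were paired. The fit with the replicate number as a block used the compared libraries alone. It called 3628 genes at 6 h, against 5540 in those libraries without the block, and 232 in the comparison of the cell lines, against 440 without the block and 622 with all libraries. In that comparison leaving out single libraries gave 364 to 646 genes, among them 376 without treated A2780cis library 2, 403 without untreated A2780cis library 2 and 405 without treated A2780 library 2, and the cause was not tested. Removal of the GC trend, added after the data were seen, gave 1282 genes there (449 positive and 833 negative, 35.0% instead of 22.2% positive) and 5572 at 6 h, of which 4115 were shared with the count above. It turned the median of the SR protein list to 0.04, that of the interferon list to -0.04 and FOXM1 to -0.05. BIRC3, which did not pass the threshold at 6 h, turned from -0.05 to 0.01 with library sizes alone, to 0.2 without the GC trend, and ranged from -0.16 to 0.07 with single libraries left out. Genes of few counts have wide errors at 11096092 to 14372622 reads per library.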

Other observations

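Further gene groups were counted at 6 h, with no test of the groups. Of 27 interferon-response genes tested, 7 fell and 2 rose, beside 13.4% lower and 16% higher over all genes, and the median log2 FC of the list was 0.09, or -0.04 with the GC trend removed. The number that rose was 0 without untreated library 1, 1 without treated library 1 and 4 without treated library 3 or untreated library 2. The antiviral gene IFIT3 had 75.4, 75.0 and 70.6 CPM untreated and 35.9, 38.7 and 41.6 CPM treated (log2 FC -0.93 ± 0.09, adjusted p = 1.77e-08), with no overlap. In the TGF-beta and BMP pathway 7 of 23 fell (30.4%) and 4 rose (17.4%). The receptor gene BMPR1A fell from 176, 164 and 153 CPM to 75.1, 82.7 and 88.7 CPM (-1.0 ± 0.11). Without treated library 1 or untreated library 1 the number that fell was 4. XBP1, a factor of the unfolded protein response, fell (-0.78 ± 0.10), as did the hexokinase gene HK2 (-0.77 ± 0.10) and SLC7A11 (-0.92 ± 0.14), the cystine transporter. Of 27 genes of ER protein folding 2 rose and 8 fell, and of 21 glycolysis genes 5 rose and 1 fell. NRF2 targets (6 of 19 higher, 3 lower) and ATF4 stress response genes (8 of 24 higher, 6 lower) went both ways. With the GC trend removed, glycolysis counted 1 higher and 1 lower, and ER folding 4 and 9. NRF2 targets then counted 2 higher and 3 lower, and ATF4 genes 5 and 8. Among Notch effectors 8 of 15 rose (53.3%) and 1 fell (6.7%), beside the same 16% and 13.4% over all genes. HES2 had 0.646, 0.473 and 0.637 CPM without and 3.58, 3.15 and 2.96 CPM with the drug (2.43 ± 0.25), and HEY1 rose by 0.72 ± 0.13. The number that rose was 5 with the GC trend removed, when 3 fell, and 4 without untreated library 1. ATR, the replication stress kinase, fell (-0.76 ± 0.11) and EXO1, an exonuclease of mismatch repair and end resection, rose (0.54 ± 0.08). ZEB1, a driver of mesenchymal identity, fell (-0.95 ± 0.12), as did the growth factor receptor gene PDGFRA (-1.24 ± 0.09).

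Of 468 zinc finger genes named ZNF, 83 rose (17.7%) and 53 fell (11.3%), shares near those of all genes, and 33 fell without treated library 1 or untreated library 1. ZNF600 went from 9.98, 9.08 and 9.0 CPM to 24.3, 31.6 and 29.9 CPM (1.61 ± 0.13), and ZNF79 from 8.69, 9.37 and 8.09 CPM to 25.4, 25.9 and 26.1 CPM (1.57 ± 0.12). Of 168 small nucleolar RNAs tested, 18 were lower (10.7%) and 0 higher, beside 13.4% lower and 16% higher over all genes. Their median log2 FC was -0.35. The number lower was 10 without treated library 1 or untreated library 1, in the latter case with 1 higher. Of 28 small nucleolar RNA host genes 6 fell (21.4%) and 0 rose, with SNHG3 at -0.82 ± 0.12. The host gene of the miR-17-92 cluster, MIR17HG, fell from 31.9, 18.6 and 21.1 CPM to 6.23, 8.42 and 8.89 CPM (-1.61 ± 0.19), and 24.1% of its exonic bases are shared with other annotated genes. MIR34AHG, the host gene of the p53-induced miR-34a, rose (1.13 ± 0.31, adjusted p = 0.00619). RPSAP52, a transcribed pseudogene, fell by 1.81 ± 0.19 on the log2 scale.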
